A study of Mus musculus with 2 samples.

Results

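Brown fat thermogenic genes are the set by which brown and beige fat cells burn fuel as heat, and they were examined here in mouse lung. The set holds 10 genes: Ucp1, Cidea, Dio2, Ebf2, Cox7a1, Cox8b, Elovl3, Ppargc1a, Prdm16 and Adrb3. Each symbol was matched to 1 of the 37315 gene identifiers counted in both libraries. The members were chosen with the PM2.5 over control ratios of these 2 libraries known, so those ratios are given as a description and carry no test.

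The study sequenced polyadenylated RNA of lung tissue, taken from mice of the inbred strain C57BL/6 after exposure to PM2.5 (airborne particles with diameters up to about 2.5 micrometres) and in unexposed controls. There was 1 PM2.5 library of 57435027 counts and 1 control library of 62788045 counts. Both titles carry 12W, which the labels do not explain, and the labels give no age, sex, dose or route, nor how many animals stand behind a library. The lung identity held in both libraries. Surfactant gene Sftpc had 1159636 counts in the PM2.5 library and 837001 in the control library. Club cell gene Scgb1a1 had 1860197 and 1123766 counts in the same order. Ager, a gene of alveolar type 1 cells, went the other way, with 105409 counts in the PM2.5 library and 138053 in the control library.

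As background, brown fat is switched on by noradrenaline from sympathetic nerves, which acts on the β3-adrenergic receptor, raises cyclic AMP and starts both the release of fatty acids and the transcription of Ucp1. UCP1 protein lets protons flow back across the inner mitochondrial membrane without making ATP, so that the energy of the respiratory chain leaves as heat. PRDM16 and EBF2 set and keep the brown fat cell fate, PGC-1α (Ppargc1a) drives mitochondrial genes, and DIO2 makes active thyroid hormone inside the cell.

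Most of the set was higher in the PM2.5 library, with Ucp1 far ahead of the rest. Ucp1 had 4855 counts there and 8 in the control library. Cidea, Cox8b, Cox7a1, Ebf2, Dio2 and Elovl3 were also at least 2-fold higher, while Adrb3, Ppargc1a and Prdm16 stayed within 2-fold. A gene is called higher or lower when its CPM, its count divided by the TMM-scaled library size in units of 1000000, differed by 2-fold or more with an exact 95% counting interval that excludes a ratio of 1. By that rule 7 of the 10 members were higher, 0 lower and 3 neither. Over all 24315 genes with any count, 12.8% were called higher and 4.75% lower, and over the 14518 genes whose mean reached 1 CPM, 7.25% and 6.04%. Nothing is read from the members' share against that background, since the members were chosen on this contrast. With 1 library per group there is no replicate check, and intervals cover counting error only, since amplified reads are no independent molecules and the spread between animals is unknown. In whole lung, fewer cells of a type and less RNA per cell cannot be told apart.

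Of the 10 members, 9 reached a mean of 1 CPM, and Elovl3 did not. Ucp1 and Ebf2 reached it through the PM2.5 library, with control levels of 0.138 and 0.483 CPM. The median log2 ratio of the 9 was 1.5, and 1.65 with all 10 and Elovl3 at its bound, beside -0.09 over all 14518 genes. Ratios among the members ran from a log2 of -0.77 for Prdm16 to 9.14 for Ucp1. The summed level of the 9 was 157 CPM in the PM2.5 library and 60.5 CPM in the control library, and the other 8 without Ucp1 summed to 79.0 and 60.4 CPM.

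**Figure D1:**
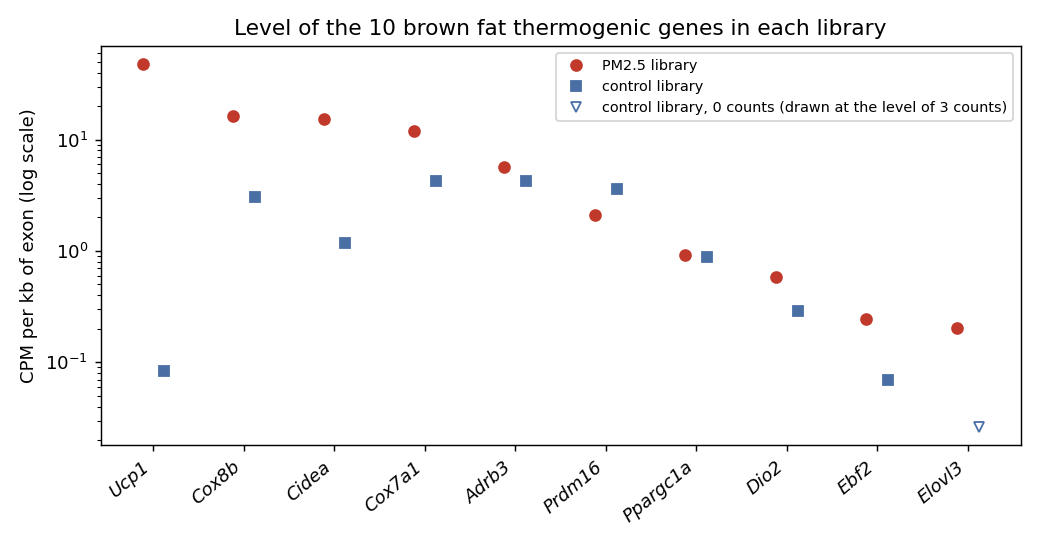
Level of each of the 10 genes in CPM per kb of exon (log axis), with circles for the PM2.5 library and squares for the control library, 1 library each; the open triangle places Elovl3, at 0 counts in the control library, at the level of 3 counts. Ucp1 leads the PM2.5 library at 47.7 CPM per kb, against 0.0843 in the control library, while Ppargc1a is nearly level and Prdm16 is lower in the PM2.5 library.

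Ucp1 (ENSMUSG00000031710), the uncoupling protein itself, lies on GRCm38 chromosome 8 from 83290352 to 83298452 on the plus strand. Its level was 78.1 CPM in the PM2.5 library and 0.138 CPM in the control library, a ratio of 566 with a counting interval of 287 to 1311. The width of that interval comes from the 8 control counts. Its lower bound ranked 1 of the 14518 genes. Per kb of exon, the scale on which genes can be set side by side, Ucp1 ranked 833 of all annotated genes in the PM2.5 library and 17067 in the control library. The flanking genes were within 2-fold: Tbc1d9, 17418 bp away, had a ratio of 1.31 (1.2 to 1.42) and Elmod2, 14180 bp away, one of 1.15 (1.06 to 1.24).

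Cidea, which coats lipid droplets and makes them fuse, had 1052 counts in the PM2.5 library and 77 in the control library. That was 12.7-fold higher (10.1 to 16.3). A noncoding gene that overlaps Cidea on the other strand, B430212C06Rik, had 30 and 27 counts in the same order. The next protein-coding genes, Impa2, Tubb6 and Afg3l2, had ratios of 0.688, 1.08 and 0.737.

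Cox8b and Cox7a1 encode isoforms of complex IV, the last enzyme of the respiratory chain, that heart, skeletal muscle and brown fat use in place of the general isoforms. Cox8b had 363 counts in the PM2.5 library and 64 in the control library, 5.29-fold higher (4.04 to 7.01). Cox7a1 had 397 and 131 counts in the same order, 2.82-fold higher (2.31 to 3.47). Psmd13, which runs towards Cox8b on the other strand and ends 302 bp from it, had a ratio of 0.994 (0.955 to 1.03), and Capns1, 858 bp from Cox7a1, had 0.888.

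Elovl3 extends long fatty acids to very long ones and is induced by cold in brown fat. It had 25 counts, 0.402 CPM, in the PM2.5 library and 0 in the control library, where a count of 0 was set to a floor of 3 counts or 0.0517 CPM. Against that floor in the control library it was 7.77-fold higher, and the 95% counting interval of its ratio begins at 5.86.

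Dio2, the deiodinase that turns thyroxine into the active hormone, had 210 counts in the PM2.5 library and 97 in the control library. Its ratio of 2.02 (1.58 to 2.59) lay just past the 2-fold limit, and the interval includes 2. It fell short of that limit with DESeq2 size factors and with the control library thinned to the PM2.5 total. Adrb3 lay next below it among the members, at 1.34.

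The promoters of Ucp1, Dio2, Cox7a1 and Cox8b are shown because these are the 4 higher members with an entry in the RefSeq promoter table (GRCm38.p6), which holds 6 of the 10 members. Each run is the 250 bases before the RefSeq start, 5′ to 3′ on the gene's strand, and capitals mark every match to the motifs searched.
Ucp1, chr8:83290098-83290347, plus strand: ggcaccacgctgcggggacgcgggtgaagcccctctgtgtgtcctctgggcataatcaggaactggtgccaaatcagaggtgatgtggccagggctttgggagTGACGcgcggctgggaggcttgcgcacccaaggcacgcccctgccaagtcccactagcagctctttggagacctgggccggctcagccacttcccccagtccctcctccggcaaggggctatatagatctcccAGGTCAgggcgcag
Dio2, chr12:90739039-90739288, minus strand: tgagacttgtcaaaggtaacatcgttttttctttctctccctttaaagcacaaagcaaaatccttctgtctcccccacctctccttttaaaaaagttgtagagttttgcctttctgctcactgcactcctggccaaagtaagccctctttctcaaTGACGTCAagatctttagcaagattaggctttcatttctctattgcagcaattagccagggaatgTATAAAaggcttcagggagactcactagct
Cox7a1, chr7:30183921-30184170, plus strand: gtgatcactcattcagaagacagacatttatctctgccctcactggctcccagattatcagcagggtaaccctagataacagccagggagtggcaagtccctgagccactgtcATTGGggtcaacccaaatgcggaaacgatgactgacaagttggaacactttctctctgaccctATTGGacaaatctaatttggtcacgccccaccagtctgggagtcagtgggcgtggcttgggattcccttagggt
Cox8b, chr7:140900447-140900696, minus strand: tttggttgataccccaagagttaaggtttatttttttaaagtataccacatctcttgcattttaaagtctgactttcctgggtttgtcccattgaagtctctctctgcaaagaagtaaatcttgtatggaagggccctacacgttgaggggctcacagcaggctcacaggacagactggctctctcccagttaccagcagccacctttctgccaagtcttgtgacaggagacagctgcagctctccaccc

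Both strands were searched for 8 motifs. The cyclic AMP response half-site TGACG was in 3 of the 6 member windows and in 17.8% of the 32851 windows of the table. Ucp1 held it at bases -147 to -143 from the start, and Ppargc1a at -49 to -45. Dio2 held it in both directions, overlapping as the palindrome TGACGTCA between -95 and -88. It also held a TATA box (TATAAA, 12.4% of windows) at -30 to -25. The RefSeq start of Dio2 is not its start in the GENCODE M21 annotation, 90738438. The bases after its window matched no GENCODE transcript of Dio2, so its positions hold for the RefSeq start only. The Cox7a1 window runs to 30184170, past the GENCODE start of that gene at 30184144. That of Ucp1 ends at 83290347, short of the GENCODE start at 83290352. All positions given are counted from the RefSeq start. The nuclear receptor half-site AGGTCA (14.0%) was found in 1 window, that of Ucp1. CCAAT (33.8%) was found in Cox7a1 and Prdm16, and the GC box GGGCGG (32.7%) in Prdm16. The estrogen-related receptor site TCAAGGTCA (0.387%), which contains AGGTCA, the palindromic EBF site (0.779%) and the DR1 element, a pair of AGGTCA half-sites with 1 base between them (0.0335%), were in 0 of the 6. Cox8b held no match. A match describes these letters and not a site in use.

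Among the regulators, Ebf2 (ENSMUSG00000022053), the factor that opens chromatin at brown fat genes, was the 1 member called higher. It had 105 counts in the PM2.5 library and 28 in the control library, 3.50-fold higher (2.29 to 5.51). Ppargc1a had 379 and 336 counts in the same order, a ratio of 1.05 with an interval (0.905 to 1.22) that includes equality under TMM scaling. Its log2 ratio of 0.07 depended on the scaling and was 0.30 with library totals.

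Prdm16, a zinc finger regulator that blood stem cells use as well as brown fat, went the other way. It had 1220 counts in the PM2.5 library and 1939 in the control library, a 1.71-fold lower level (1.59 to 1.83). Long genes had lower ratios in general. The median log2 ratio was -0.30 among the genes closest to Prdm16 in exon length (1 of 10 equal bins), whose own value was -0.77, and 0.34 in the bin of the shortest genes, which holds Ucp1, Cidea, Cox7a1 and Cox8b.

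Adrb3, the receptor at the head of the pathway, had 1189 counts in the PM2.5 library and 830 in the control library. Its ratio was 1.34 (1.22 to 1.46). Adrb1, the β1-adrenergic receptor, had 3543 counts in the PM2.5 library and 5439 in the control library, a 1.65-fold lower level (1.58 to 1.72) that did not reach the 2-fold limit.

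**Figure D2:**
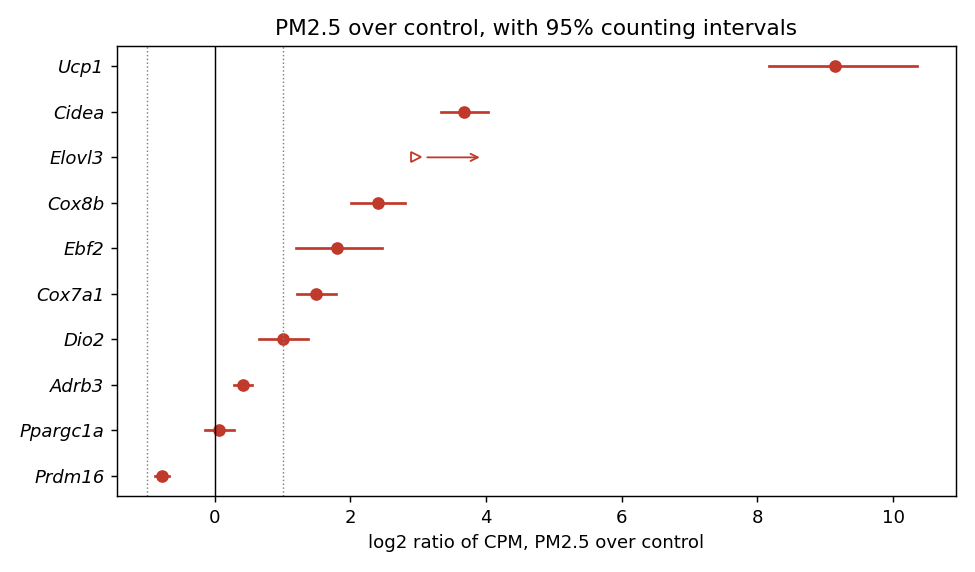
Log2 ratio of CPM, PM2.5 over control, for each member (points) with its 95% counting interval (bars); dotted lines mark 2-fold, and the open triangle with an arrow is the lower limit for Elovl3. Ucp1 stands far right at 9.14, Ppargc1a straddles 0 and Prdm16 lies at -0.77.

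The order of the levels changed between the libraries. Per kb of exon, Ucp1 led the PM2.5 library at 47.7 CPM per kb, with Cox8b at 16.2 and Cidea at 15.2 next, whose counting intervals overlap. Cox7a1 followed at 11.9, Adrb3 at 5.66, Prdm16 at 2.1, Ppargc1a at 0.924 and Dio2 at 0.581. Ebf2 at 0.244 and Elovl3 at 0.204 CPM per kb came last, with overlapping intervals. In the control library Adrb3 at 4.24, Cox7a1 at 4.22, Prdm16 at 3.59 and Cox8b at 3.07 CPM per kb came first, and each overlapped the next. Cidea at 1.19 and Ppargc1a at 0.879 overlapped too. Dio2 at 0.288 stood apart, Ucp1 at 0.0843 and Ebf2 at 0.0697 CPM per kb overlapped, and Elovl3 had 0 counts.

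Several members have a close relative that does a like job in other cells, and the shares of counts within such pairs also differed. Cox7a1 took 6.88% of the counts of Cox7a1 and the general isoform Cox7a2 in the PM2.5 library (exact binomial 95% interval 6.24 to 7.56) and 3.36% in the control library (2.81 to 3.97). For Cox8b against the general isoform Cox8a the shares were 3.65% (3.29 to 4.04) and 0.963% (0.743 to 1.23). These shares are not corrected for length. Per kb, Cox8b stood at 0.0651 of Cox8a in the PM2.5 library and 0.0167 in the control library, so the general isoform was the more abundant in both.

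Ucp2, an uncoupling protein relative that many immune cells express, was 2.48-fold lower (2.44 to 2.52), with 20659 counts in the PM2.5 library and 47750 in the control library. Per kb of exon, Ucp1 and Ucp2 were at 47.7 and 47.5 CPM per kb in the PM2.5 library. In the control library they were at 0.0843 and 118 CPM per kb. The near equality in the PM2.5 library depends on the length used. Ucp2 has 6989 nt of merged exons but a longest transcript of 3988 nt, while Ucp1 has 1636 nt by both. Ucp3, the muscle relative, had a ratio of 1.08 (0.900 to 1.29). Cidea took 27.9% of the counts of Cidea and its fat cell relative Cidec in the PM2.5 library and 5.75% in the control library. Cidec itself was 2.01-fold higher (1.88 to 2.15), and it fell short of the 2-fold limit with DESeq2 size factors.

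Of the relatives of Ebf2, Ppargc1a and Elovl3, Ebf1 had a ratio of 0.769, Ppargc1b of 0.670 (0.503 to 0.890), and the general elongases Elovl1, Elovl5 and Elovl6 of 1.23, 0.646 and 1.71. Of the 17 family partners at 1 CPM or more, of 24 listed, 1 was called higher (Cidec) and 1 lower (Ucp2), with a median log2 ratio of -0.25. Below 1 CPM, and named after their values were seen, the relatives Ebf3, with 71 counts in the PM2.5 library and 10 in the control library, and Dio1, with 69 and 19 counts in the same order, had ratios of 6.62 (3.40 to 14.4) and 3.38 (2.01 to 5.96).

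**Figure D3:**
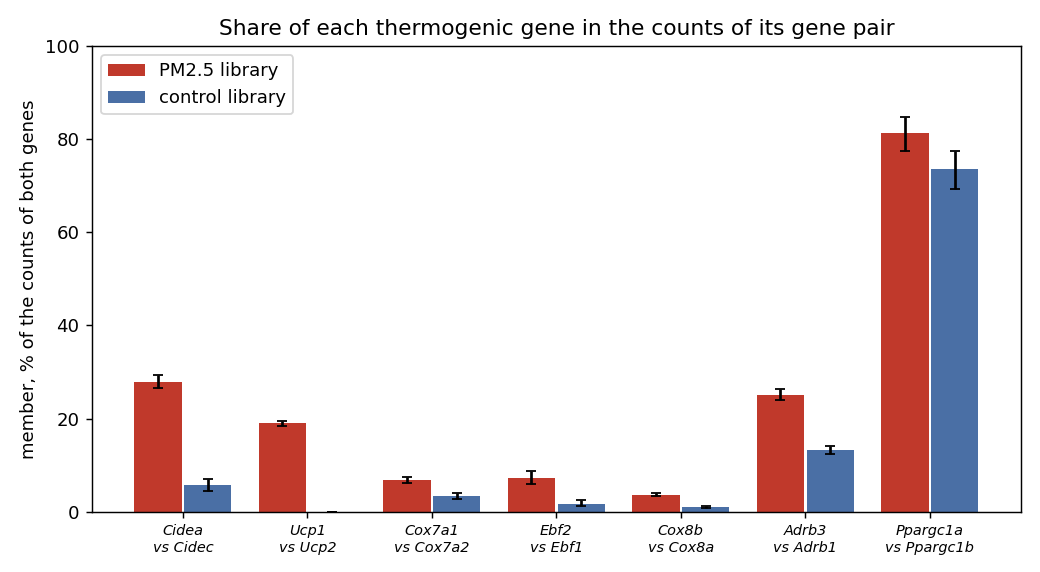
Share of each member drawn in the summed counts of that member and the relative named under it, in percent. Left bars are the PM2.5 library and right bars the control library, with exact 95% binomial intervals. Elovl3, Dio2 and Prdm16 are not drawn, and the shares are not corrected for length. Ucp1 takes 19.0% of the counts of Ucp1 and Ucp2 in the PM2.5 library and 0.0168% in the control library.

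Other genes known from brown or beige fat did not move as a block. Of 26, 18 reached 1 CPM, with 2 called higher, 4 lower and a median log2 ratio of 0.40. The higher pair were Clstn3, whose fat-specific form lies on lipid droplets, at 5.66-fold (4.04 to 8.12) from 0.690 CPM in the control library, and the secreted factor Nrg4 at 3.65-fold (2.73 to 4.94). The lower genes were the beige fat marker Tmem26 at 5.32-fold (4.34 to 6.57) and the pyruvate dehydrogenase kinase Pdk4 at 3.45-fold (3.16 to 3.76), and, named after their values were seen, Kcnk3 at 2.39-fold and Pdk2 at 2.04-fold. The balance turned with the setting, to 5 higher and 3 lower with library totals and 4 higher and 3 lower with the upper quartile. Of those below 1 CPM, the interscapular brown fat markers Zic1 and Lhx8 were at or near 0: Zic1 had 7 counts in the PM2.5 library and 4 in the control library, and Lhx8 had 5 and 0. Otop1, a proton channel gene of brown fat, was below a mean of 1 CPM, with 74 and 2 counts in the same order and a ratio of 34.5 (9.22 to 290). Bmp8b, a secreted factor of brown fat, had 4 and 14 counts, 3.76-fold lower (1.18 to 15.7), and was named after its value was seen. Cpt1b, which brings fatty acids into mitochondria of muscle and brown fat, had 8 and 3 counts. Tmem26 did not stand for all beige fat markers of the list, of which others are given here after their values were seen. Tnfrsf9, below a mean of 1 CPM, had 82 counts in the PM2.5 library and 27 in the control library, 2.83-fold higher (1.81 to 4.55). Tbx1 had a ratio of 1.13 (1.03 to 1.23), and Cited1, with 8 and 6 counts, one of 1.24 (0.378 to 4.35).

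Members aside, among them Ebf2 at 3.50-fold, the genes of the command chain above Ucp1 that reached 1 CPM were within 2-fold. Ebf3, listed with them but below 1 CPM, had a ratio of 6.62 (3.40 to 14.4). Of 34 genes for receptors, cyclic AMP signalling, nuclear receptors and coactivators, 32 reached 1 CPM, and 0 were higher and 0 lower, with a median log2 ratio of -0.45; with DESeq2 size factors 1 was lower. The most abundant, the kinase subunit Prkar1a and the factor Cebpa, had ratios of 0.690 and 0.904. Other complex IV genes were likewise within 2-fold: 14 of 15 reached 1 CPM, 0 were called in either direction, and the median was 0.43. Cox4i1 had a ratio of 1.01, Cox7a2l one of 0.843 and the heart and muscle isoform Cox6a2 one of 1.49 (1.36 to 1.64). In the list of creatine, calcium and glycerol cycles and fatty acid oxidation, 1 of 22 measured genes, of 24 listed, was higher, Gpd1 at 3.15-fold (2.97 to 3.34), and 0 were lower, with a median of -0.16.

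Many general fat cell markers were higher beside the members, and some were lower. All 19 listed had a mean of 1 CPM or more, 2 of them, Lep and Acvr1c, through the PM2.5 library; 11 were higher, 0 lower, and the median log2 ratio was 1.11. Lep was 32.2-fold higher (16.1 to 75.2), Thrsp 12.4-fold, Retn 11.4-fold, Adipoq 6.35-fold (5.70 to 7.09), Fabp4 6.08-fold and Plin1 4.58-fold (3.97 to 5.31). The lipases Pnpla2 and Lipe, the fatty acid transporter Cd36, Trarg1 and Lpl, named after their values were seen, had ratios of 0.607, 0.625, 0.663, 0.671 and 0.909 with intervals below 1, and at a size of 1.5-fold 3 of the list were lower. The summed level of the list, led by Cd36, was 2576 CPM in the PM2.5 library and 2683 CPM in the control library, and 0 of the markers were at 0 counts in either. Set against Adipoq, the fat cell hormone, the level of Ucp1 per kb was 1.59 in the PM2.5 library and 0.0178 in the control library, 89.1 times higher. Against each of the 19 markers in turn, the level of Ucp1 per kb was higher in the PM2.5 library relative to all 19, by 17.6 times (Lep) to 932 times. Cidea was higher relative to 18, with 2.01 against Adipoq, 1.12 against Retn, 1.03 against Thrsp and 0.396 against Lep. Any value above 1 was counted as higher, without an interval. The counting interval of the Cidea ratio overlaps those of Retn and Thrsp. Prdm16 was higher relative to 0 of the 19. The other members were higher relative to between 5 (Ppargc1a) and 16 (Elovl3, set against 3 counts), so their direction depended on the marker chosen. These comparisons were added after the ratios were seen. The part of fat cell content in the members' ratios was not tested.

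Some genes of muscle, which shares Cox7a1, Cox8b and Ppargc1a with brown fat, also differed. Of 12 heart muscle genes, 11 reached 1 CPM, with 4 higher (Tnnt2 at 2.27-fold, Nppa at 2.79-fold, Sln at 2.21-fold and Tnni3 at 2.02-fold) and 1 lower, Myh6 at 2.61-fold. With DESeq2 size factors 3 were higher, and with the whole interval beyond 2-fold 2. The 11 had a median log2 ratio of 0.54 and summed to 424 CPM in the PM2.5 library and 401 CPM in the control library. Of all 12 listed, 0 were at 0 counts. Of 13 skeletal muscle genes, 5 reached 1 CPM, with 2 higher, Tnnt3 at 9.53-fold (6.90 to 13.5) and Tnni2 at 3.36-fold, and 0 lower. Ckm, the most abundant of the list, was nearly level at a ratio of 1.05 (0.890 to 1.24), and Mylpf had one of 1.74 (1.30 to 2.37). Both higher genes, and Atp2a1 at 0.759 CPM, were under 1 CPM in the control library. So 3 of the 5 reached a mean of 1 CPM through the PM2.5 library only. The 5 summed to 17.8 CPM in the PM2.5 library and 8.23 CPM in the control library, where Tnnt3 alone had 6.74 and 0.707 CPM. That filter favours genes high in the PM2.5 library, so nothing is read from the difference of these sums. Of all 13 listed, 2 were at 0 counts in the PM2.5 library and 3 in the control library. The fast myosin Myh4 had 0 counts in both, and Myh1 and Myh2 had 2 and 1 in each. The part of muscle in the Cox7a1 and Cox8b ratios was not tested.

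**Figure D4:**
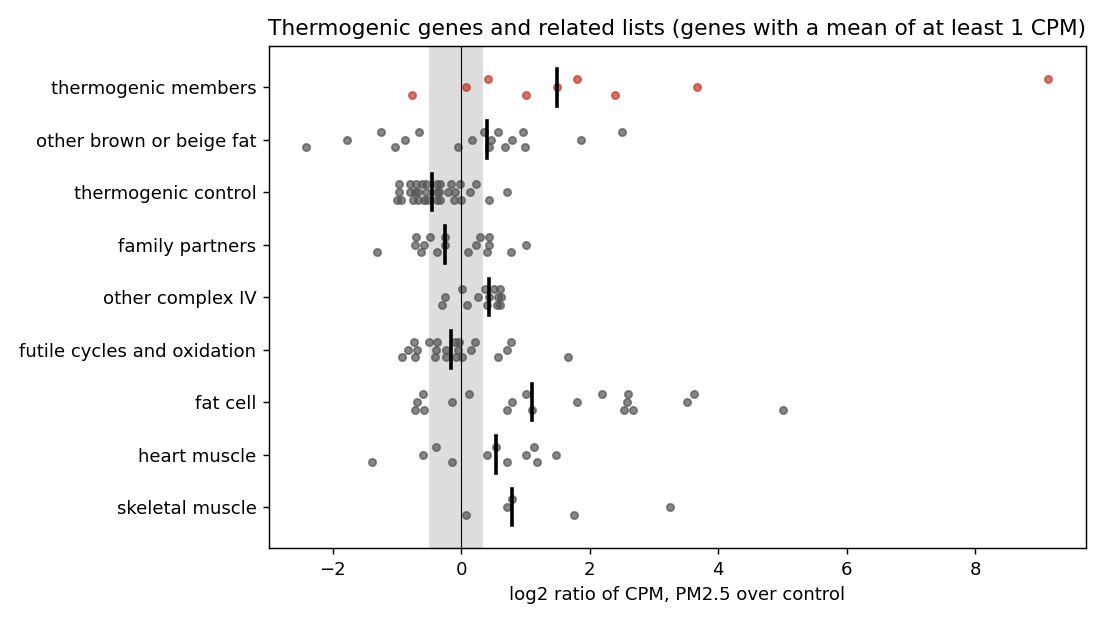
Log2 ratio, PM2.5 over control, of each gene that averaged at least 1 CPM (points) in the thermogenic set and related lists, with thick bars at the medians and grey shading between the quartiles of all genes, -0.48 and 0.33. The medians are 1.5 for the members, 1.11 for fat cell genes and -0.45 for the thermogenic control list.

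The 5 named protein-coding genes outside the set whose ratio across these 2 libraries came nearest to that of Ucp1, by the lower bound of the counting interval, were Ccl21b, Lep, Rpl29, Chil1 and Pnpla3. Ccl21b, a chemokine gene with near-identical copies that can split reads, had 185 counts in the PM2.5 library and 0 in the control library. Against 3 control counts it was 57.5-fold higher, with a counting interval that begins at 46.3. Pnpla3, a lipid droplet enzyme, was 17.4-fold higher (12.2 to 25.7), Rpl29, which has processed copies, 14.8-fold, and the chitinase-like Chil1 14.4-fold.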

How the data were processed

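Messenger RNA of 1 PM2.5 and 1 control lung library was made into stranded libraries and read in pairs of 125 bp, per the labels' protocols. Alignment and counting used TopHat2 2.1.1, HTSeq 0.6.0 and the mm10 build, per the submitters' processing notes; no annotation release or strand setting is stated there, so antisense and overlapping genes are uncertain. The deposited files hold raw counts per Ensembl gene, not normalized. Symbols (35533 of 37315 identifiers), positions and exon lengths came from GENCODE M21 on GRCm38. Libraries were scaled by TMM (edgeR 4.0.16; factors 1.08 for PM2.5 and 0.923 for control). CPM, CPM per 1000 nt of merged exons, ratios and exact 95% Clopper-Pearson intervals were computed with Python 3.11.15 and scipy 1.17.1; a gene at 0 was set against 3 counts in that library. The ratio, its interval and the calling rule were tested on counts simulated with counting error only. The scaling, levels per length, lists and promoter search were not tested in this way. No p-value is possible with 1 library per group.

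The members and lists were chosen with earlier results of these data known. Named were all members, each list's leading called genes (up to 4 higher and 2 lower, else the 2 most abundant), family partners, cell type markers and the 5 genes most like Ucp1; others are marked. Promoter windows came from RefSeq (GRCm38.p6). Alternatives were other filters, size rules, floor and lengths, thinning of the deeper library, and scaling by upper quartile, DESeq2 1.42.0 size factors, plain totals or TMM on all but the 100 leading genes. Some genes that the naming rule takes are left out of the text.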

Additional observations from a re-analysis of the deposited data

How the results depend on the processing

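At a mean of at least 1 CPM, 6 members were higher and 0 lower. The higher count was 5 with DESeq2 size factors, with the control library thinned to the PM2.5 total and with the interval bound beyond 2-fold, as Dio2 dropped out, and 6 under the other scalings. At a mean of at least 10 CPM, 1 member was higher. At a size of 1.5-fold, 1 member, Prdm16, was lower. The median log2 ratio of 1.5 was 1.73 with library totals, 1.64 with the upper quartile, 1.65 without a filter, 0.42 at 10 CPM and 1.2 with the median of genes of like length subtracted, the last chosen after seeing the data. Library totals and the upper quartile raise the median of all genes by 0.23 and 0.14 (log2) by construction. No member changed direction under any scaling, and Prdm16 ranged from -0.78 to -0.54. Elovl3 set against 1 count had a log2 ratio of 4.54, and 2.96 with 3 counts. The median of the other brown fat genes was 0.40 and became -0.04 at 10 CPM, and that of the futile cycle list was -0.16 and became 0.07 with library totals. Cidec, at 2.01-fold, was no longer called with DESeq2 size factors, where 0 family partners were higher. Without a filter, 4 other brown fat genes were higher against 2 with it (5 lower against 4), 3 family partners against 1, 2 futile cycle genes against 1 and 1 thermogenic control gene against 0. At 1.5-fold, the other brown fat genes had 6 higher and 6 lower, and 12 thermogenic control genes were lower and 1 higher. The order of Ucp1 and Ebf2 in the control library was reversed with the longest transcript as length. Depth limits Elovl3, Zic1, Lhx8 and the control level of Ucp1. No paired analysis was possible because each group has 1 library, and for the same reason no replicate could be left out.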
